A study of Xenopus tropicalis with 17 samples.

Results

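Whole Xenopus tropicalis embryos null for sf3b4 were compared with wild type embryos, both at stage 35. The comparison used 4 of the 17 RNA-seq libraries of the study, taken by their titles: 2 null pools and 2 wild type pools. Each pool held 5 whole embryos, raised in NAM without a treatment, and each library was stranded and polyA selected. Heterozygous embryos, with 2 pools at stage 35 and 2 pools at stage 25, gave the change that takes place between the stages. Their libraries were not among the pools compared, but added to the shared estimate of spread. The labels do not state the sf3b4 mutation, its position or the parentage of the pools. The p-values below thus measure only the spread between pools of a group, estimated over 16 libraries in 8 groups. Of 26531 genes listed, 17742 passed a filter on low counts and were tested.

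Sf3b4 is a subunit of SF3b, the part of the U2 small nuclear ribonucleoprotein (snRNP) that holds the branch point region of an intron while the spliceosome assembles. In people, mutations of SF3B4 cause Nager syndrome, in which the jaw and the limbs form abnormally. In the frog, the time between the compared stages is one in which neurons, photoreceptors and organs switch on their late genes while early patterning genes are shut down. A gene that differed between null and wild type was therefore called delay-like when it met 2 conditions. It differed from wild type in the direction opposite to a heterozygous change called from stage 25 to stage 35. The null pools were also not called past the heterozygous stage 25 level. A null level that lay past it without being called so thus still counted as delay-like, as for cfi. The share of delay-like calls in a list thus depends on how many of its members rise or fall between the stages. Whole embryos were sequenced, so fewer cells of a type and less RNA per cell cannot be told apart.

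Library totals were 15306959 and 12432180 counts in the null pools and 13467906 and 12076367 in the wild type pools. Levels are given in CPM, counts scaled to the size of the library, for pool 1 and then pool 2 of a group. Markers of ectoderm (sox2, elavl3), mesoderm (myod1, actc1) and endoderm (foxa2, hnf4a) were present in every pool. The sf3b4 transcript itself was at 74.8 and 80.2 CPM in the null pools, against 83.6 and 107 CPM in the wild type pools (log2 fold change -0.30 ± 0.20 SE, adjusted p = 0.394). A gene count does not show whether a transcript encodes a working protein, so it does not check the null label. The wild type pools differed from each other in some tissues. Summed liver genes stood at 17327 CPM in wild type pool 1 and 9230 CPM in pool 2, and the 47 lens crystallins tested at 603 CPM and 59.3 CPM. The heterozygous stage 35 pools also differed, at 6191 and 14823 CPM for liver genes.

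By the quasi-likelihood test of edgeR with Benjamini-Hochberg adjustment over all genes tested, 851 genes (4.8%) were higher and 879 genes (4.95%) lower in null than in wild type embryos, 9.75% in all. These percentages are the background for every gene list below, and the median log2 fold change over all genes tested was -0.03. Null and wild type pools did not overlap for 60.5% of all genes tested, so pools that stand apart are common here. Between the heterozygous stages, 25.7% of genes rose and 22.0% fell. At stage 25, null against wild type gave 140 genes higher (0.789%) and 175 lower (0.986%). The null effect differed between stages 35 and 25 for 25 genes (0.141%), more positive at stage 35 for 20 (0.113%) and more negative for 5 (0.0282%). Of the genes called higher in null at stage 35, 357 were delay-like, which is 42.0% of them and 2.01% of all genes tested. Of the genes called lower, 399 were delay-like, which is 45.4% of them and 2.25% of all genes tested. In the delay-like genes called lower, the median difference of stage 35 null from stage 25 heterozygotes was 0.60 on the log2 scale. Their median difference from wild type was -1.20. In the delay-like genes called higher, the same medians were -0.2 and 0.93. The class was chosen by these same comparisons, so the medians describe it and test nothing.

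The other 494 genes called higher and 480 called lower fell outside the delay-like class. For 394 of those higher and 345 of those lower, no change between the heterozygous stages was called. A further 72 and 128 differed from wild type in the same direction as the stage change. The smallest group was called past the stage 25 level, with 28 genes above it and 7 below it. The counts rested on all 4 pools. With null pool 1 left out, 348 genes were called higher and 178 lower, with null pool 2 left out 271 and 155, with wild type pool 2 left out 200 and 166, and with wild type pool 1 left out 592 and 641. A set of 164 genes higher and 98 lower was called in all 4 of these fits as well as with all pools. That set held most of the genes past the stage 25 level, a class that also needed a call against stage 25 heterozygotes with the same null pools. Its shares of the delay-like genes were near its shares of all genes called higher and lower.

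**Figure D1:**
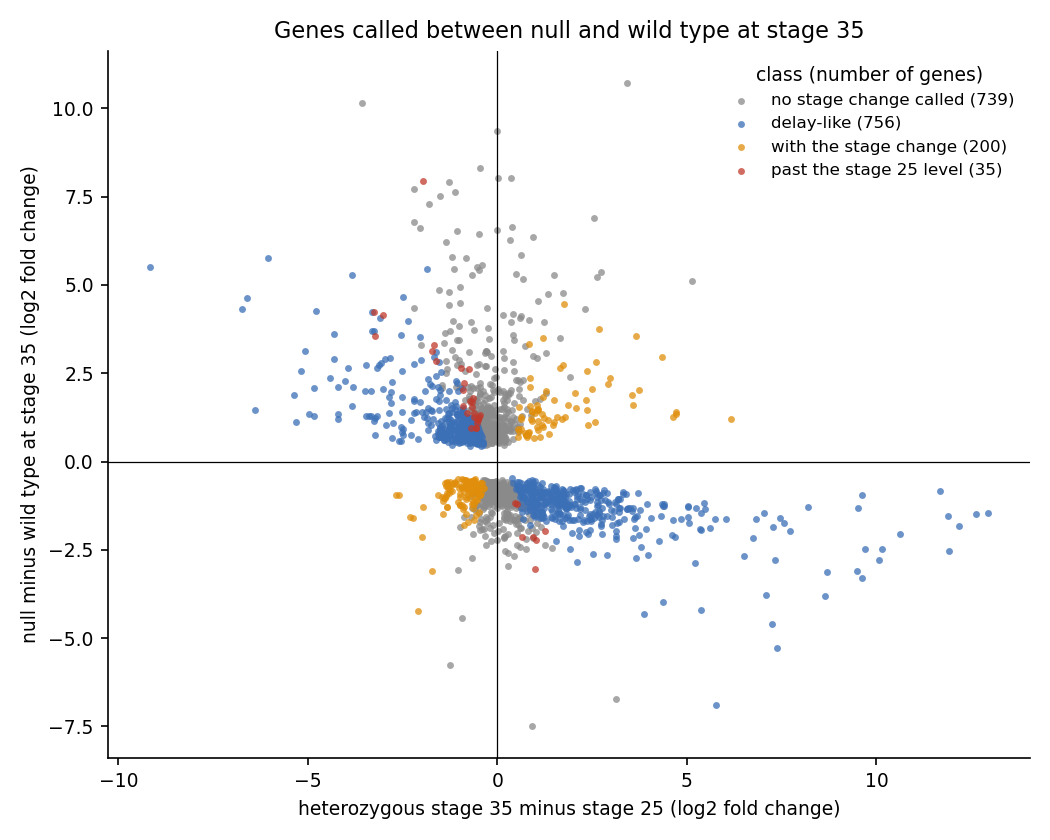
Each point is 1 of the 1730 genes called between null and wild type embryos at stage 35, with its log2 fold change between the heterozygous stages on the horizontal axis and its null minus wild type log2 fold change on the vertical axis. The 756 delay-like genes lie at the upper left and lower right, the 200 genes that differ in the direction of the stage change at the upper right and lower left, and the 35 genes past the stage 25 level among the delay-like genes.

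The eye held the list with the most members called lower. Of 47 photoreceptor genes tested, 19 were lower and 1 higher in null embryos, the median log2 fold change was -1.24, and 40 of the 47 estimates were below 0. All but 1 of the 19 were delay-like, in a list where 43 of the 47 genes rose between the heterozygous stages. Summed photoreceptor genes stood at 938 and 1233 CPM in the null pools, against 2303 and 3072 CPM in the wild type pools, and at 295 and 301 CPM in the stage 25 heterozygotes. Both null pools thus lay between the stages. At stage 25, when these genes were low, 1 of the 47 was called between null and wild type embryos and the median log2 fold change was 0.13.

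Opsins, the light-sensing pigments, fell in both rods and cones. The red cone opsin opn1lw was at 33.1 and 67.9 CPM in the null pools and 237 and 329 CPM in the wild type pools (log2 fold change -2.49 ± 0.38 SE, adjusted p = 0.00107). The short-wavelength cone opsin opn1sw was at 16.3 and 33.1 CPM in the null pools and 72.4 and 76.5 CPM in the wild type pools. Rhodopsin, the rod pigment encoded by rho, was at 43.2 and 109 CPM in the null pools and 331 and 522 CPM in the wild type pools (log2 fold change -2.48 ± 0.49 SE, adjusted p = 0.00566). For all 3 opsins the groups did not overlap, and the null values were above the stage 25 heterozygous ones, which did not pass 0.613 CPM.

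Genes of the signalling cascade behind the opsins fell with them. The rod and cone transducin subunits gnat1 and gnat2, which carry the signal from an excited opsin, had log2 fold changes of -2.16 ± 0.41 and -1.87 ± 0.33 (SE). The rod arrestin sag, which shuts the opsin off, was at 6.19 and 11.4 CPM in null and 49.2 and 72.5 CPM in wild type pools (-2.80 ± 0.59 SE, adjusted p = 0.00814). The outer segment disc protein rom1 fell by 2.67 on the log2 scale, and impg2, a proteoglycan of the matrix around photoreceptors, fell by 1.89. The transducin beta subunit gnb3 was the lower member outside the delay-like class. Its level was 117 and 160 CPM in null pools, 271 and 357 CPM in wild type pools, and already 218 and 215 CPM in stage 25 heterozygotes.

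The transcription factors that specify photoreceptors did not pass the test. Levels of crx were 201 and 194 CPM in the null pools and 229 and 271 CPM in the wild type pools (adjusted p = 0.698), and nrl was at 14.3 and 14.2 CPM in null and 20.1 and 18.4 CPM in wild type pools (adjusted p = 0.313). The 1 higher photoreceptor gene was cngb1, a rod channel subunit, at 19.1 and 19.7 CPM in null and 4.92 and 5.53 CPM in wild type pools (1.89 ± 0.50 SE, adjusted p = 0.0275), and its call was lost with any 1 of the 4 pools left out. A set of 5 of the 19 stayed lower with each pool left out: opn1lw, gnat2, gnb3, impg2 and unc119, a chaperone of transducin. The count of lower members was 5 without null pool 1, 12 without null pool 2, 15 without wild type pool 1 and 6 without wild type pool 2. The calls of rho, sag and rom1 were lost without null pool 1 and without wild type pool 2.

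**Figure D2:**
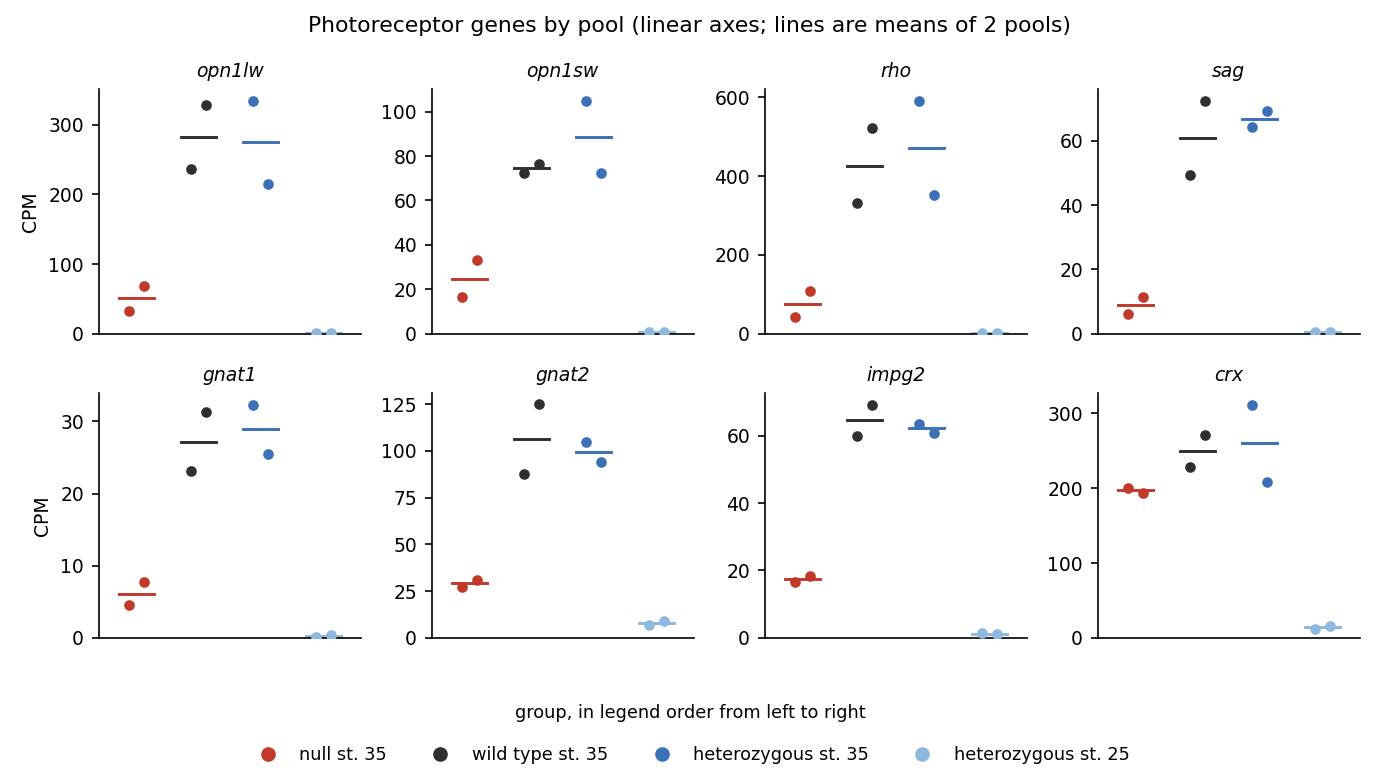
CPM of 8 photoreceptor genes (vertical axes, linear, each from 0) in 4 groups of 2 pools, with null at stage 35 leftmost, then wild type and heterozygous at stage 35 and heterozygous at stage 25; points are pools and lines are means of 2. The null points of opn1lw, opn1sw, rho, sag, gnat1, gnat2 and impg2 lie between the stage 35 and stage 25 points, while the null points of crx, at 201 and 194 CPM, lie near those of wild type.

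Other eye lists had fewer calls. In the retinal pigment epithelium list, 1 of 14 genes was lower: rpe65, the isomerase that regenerates the visual chromophore, at 43.4 and 56.7 CPM in null and 112 and 175 CPM in wild type pools (-1.52 ± 0.23 SE, adjusted p = 0.00107). It held with any pool left out. Among 26 transcription factors of the eye field and lens, six3 was lower (-0.80 ± 0.21 SE) and tbx3 higher (0.95 ± 0.20 SE). No lens crystallin was called lower, and the list's median of -0.75 came with the wide split of the wild type pools given above, at 603 and 59.3 CPM against 221 and 421 CPM in null pools. One crystallin, crybb3, was called higher, at 7.55 and 9.85 CPM in null pools and 0.0674 and 0 CPM in wild type pools. The ratio of its summed counts, 264 in null and 1 in wild type, was 241 with a 95% counting interval of 42.8 to 9540, and its reads could be shared with close copies.

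Neuronal genes called between the groups were mostly lower. Of 82 neuronal differentiation genes, 13 were lower and 1 higher, with a median log2 fold change of -0.53. Their summed level was 3066 and 3261 CPM in null pools, against 4434 and 6004 CPM in wild type pools and 1942 and 2025 CPM in stage 25 heterozygotes. Of the 13, 9 were delay-like. The inhibitory transmitter transporter slc32a1 was at 28.7 and 39.3 CPM in null and 64.8 and 106 CPM in wild type pools (-1.33 ± 0.26 SE, adjusted p = 0.00583). The synaptic vesicle protein vamp2 was at 112 and 143 CPM in null and 211 and 400 CPM in wild type pools (-1.26 ± 0.33 SE, adjusted p = 0.0259). Wild type pool 1 lay closer to the null pools in both genes, and no lower call of this list held with every pool left out. With wild type pool 1 left out 15 members were lower, and with either null pool or wild type pool 2 left out 1 or 2.

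The lower neuronal genes outside the delay-like class were slc5a7, ddc, neurod4 and elavl3. The choline transporter slc5a7, which supplies cholinergic neurons, was at 0.354 and 0.869 CPM in null and 1.75 and 3.64 CPM in wild type pools, and at 2.97 and 2.14 CPM in stage 25 heterozygotes. The RNA-binding protein gene elavl3, a general neuronal marker, was at 121 and 101 CPM in null pools, against 168 and 215 CPM in wild type pools.

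Of 65 neurotransmitter receptors, 4 were lower, all delay-like glutamate receptor subunits: gria1, gria2, grik1 and grin1, with log2 fold changes of -1.44, -1.64, -1.46 and -1.49. The list median was -0.55, and 42 of the 65 genes rose between the heterozygous stages. None of the 4 held with every pool left out, and the count was 1, 1, 3 and 1 without null pool 1, null pool 2, wild type pool 1 and wild type pool 2. Of 58 voltage-gated channel genes, 4 were lower and none higher. They were the potassium channels kcna4 and kcnq3 and the auxiliary subunits cacng4 and cacng7. Which channels or receptors the products of cacng4 and cacng7 serve was not examined here. The call of cacng7, at 9.08 and 8.62 CPM in null and 25.5 and 38.0 CPM in wild type pools, held with any pool left out, and the count of lower members was then 1 or 2.

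Neural progenitor genes were called in both directions, 7 higher and 3 lower of 45. Delay-like genes made up 5 of the 7 higher and 2 of the 3 lower. The higher ones were the Notch pathway genes notch1, notch3, dll1, jag1 and hes5.1 and the hedgehog pathway genes ptch1 and gli1, members of pathways known to act in neural progenitors. The receptor notch1 was at 182 and 158 CPM in null and 71.3 and 74.6 CPM in wild type pools (1.22 ± 0.17 SE, adjusted p = 0.000598), and it was already higher in null embryos at stage 25 (0.96, adjusted p = 0.0111). The Notch ligand jag1 was at 115 and 111 CPM in null and 56.8 and 59.8 CPM in wild type pools (0.96 ± 0.16 SE, adjusted p = 0.00167). Both calls held with any pool left out, and the count of higher members was 4, 5, 7 and 3 without null pool 1, null pool 2, wild type pool 1 and wild type pool 2. The Notch target hes5.1 and the hedgehog effector gli1 were higher by 1.37 ± 0.26 and 1.06 ± 0.20 (SE). The lower genes mark glial and oligodendrocyte lineages. The radial glia gene fabp7 was at 299 and 259 CPM in null and 751 and 657 CPM in wild type pools (-1.34 ± 0.28 SE, adjusted p = 0.00728), and olig2 was at 8.14 and 7.03 CPM in null and 13.5 and 17.4 CPM in wild type pools. No call of olig1 or olig2 held with every pool left out, while fabp7 lost its call only without null pool 2 (adjusted p = 0.092).

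In muscle, most called structural genes were higher, while the regulators had 3 lower calls of 22 and a median log2 fold change of 0.03. Of 78 contractile and calcium handling genes, 8 were higher and 1 lower, with a median log2 fold change of 0.47 and 54 estimates above 0. Their sum was 23159 and 25190 CPM in null pools, against 16277 and 15245 CPM in wild type pools, and 24611 and 28472 CPM in stage 25 heterozygotes. The fast skeletal myosin light chain mylpf was at 1761 and 1952 CPM in null and 1190 and 1026 CPM in wild type pools (0.74 ± 0.20 SE, adjusted p = 0.0266). The thin filament nucleator lmod3 was at 9.32 and 11.4 CPM in null and 2.29 and 2.2 CPM in wild type pools (2.2 ± 0.30 SE, adjusted p = 0.000516), and it alone of the 8 held with any pool left out. With wild type pool 1 left out 4 members were higher, and with any other pool left out 1.

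Among 22 myogenic transcription factors and fusion genes, 3 were lower and none higher, with a median of 0.03. Their sum was 482 and 468 CPM in null pools, against 470 and 480 CPM in wild type pools. The differentiation factor myog was at 8.37 and 6.52 CPM in null and 24.3 and 23.0 CPM in wild type pools (-1.66 ± 0.48 SE, adjusted p = 0.0409). The muscle fusion gene mymk had 3 counts over both null pools and 47 over both wild type pools, a ratio of 17.2 in favour of wild type with a 95% counting interval of 5.53 to 86.3. The somite factor tcf15 fell by 0.96 on the log2 scale. None of the 3 calls held with every pool left out. In the ferlin and muscular dystrophy list, the membrane repair gene dysf stood apart from its relatives. It was at 47.0 and 44.3 CPM in null and 0.404 and 0.152 CPM in wild type pools (7.29 ± 0.96 SE, adjusted p = 0.000402), and was higher at stage 25 too (8.78, adjusted p = 0.00277). The related ferlin myof.1 was at 19.0 and 17.5 CPM in null and 63.5 and 68.6 CPM in wild type pools (-1.85 ± 0.44 SE, adjusted p = 0.0161), a call lost with any pool but wild type pool 1 left out.

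In the extracellular matrix, 1 of 35 collagens was higher and 2 lower. The type I chain col1a2, the main collagen of skin and bone with col1a1, was at 209 and 260 CPM in null and 576 and 493 CPM in wild type pools (-1.19 ± 0.27 SE, adjusted p = 0.0139). Its partner col1a1 was at 619 and 772 CPM in null and 1658 and 1545 CPM in wild type pools, with a similar estimate that missed the threshold (-1.20 ± 0.37 SE, adjusted p = 0.0539). Both genes were far lower in stage 25 heterozygotes, at 21.4 and 32.3 CPM for col1a2. The call of col1a2 was lost with any pool left out, at adjusted p values of 0.053 to 0.143. Neural crest and pharyngeal arch genes, the list closest to the tissues affected in Nager syndrome, gave 2 of 51 called higher, none lower and a median of 0.10. Of 32 cartilage genes, hapln3 and ccn1 were higher and none was lower. With a pool left out, the log2 fold change ran from 0.69 to 1.2 for hapln3 and from 0.42 to 1.08 for ccn1. No call of the cartilage or the neural crest list held with every pool left out.

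Among the signalling genes called, most were higher. Of 33 FGF signals and feedback genes, 9 were higher, with none lower and a median of 0.57. The ligand fgf8 was at 23.2 and 23.5 CPM in null and 13.5 and 13.9 CPM in wild type pools (0.77 ± 0.20 SE, adjusted p = 0.0225). Feedback inhibitors of the FGF pathway were higher too. Levels of spry4 were 9.97 and 9.05 CPM in null and 3.57 and 2.35 CPM in wild type pools (1.68 ± 0.32 SE, adjusted p = 0.00452), and dusp6 was at 135 and 142 CPM in null and 90.6 and 78.5 CPM in wild type pools (0.71 ± 0.16 SE, adjusted p = 0.0116). Of the 9, 6 were delay-like. None of the 9 held with every pool left out, and the count was 3, 2, 7 and 1 without null pool 1, null pool 2, wild type pool 1 and wild type pool 2.

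Wnt signals and feedback genes gave 10 higher, 6 of them delay-like, and none lower of 52, with a median of 0.44. The ligand wnt6 was at 9.97 and 14.1 CPM in null and 1.35 and 1.36 CPM in wild type pools (3.14 ± 0.50 SE, adjusted p = 0.00141). It lay outside the delay-like class, with 1.62 and 1.78 CPM in stage 25 heterozygotes, and was higher in null embryos at stage 25 as well (2.47, adjusted p = 0.0232). The pathway's own negative feedback genes axin2 and znrf3 were delay-like and higher by 1.24 ± 0.15 and 1.51 ± 0.22 (SE). Levels of axin2 were 85.3 and 89.8 CPM in null and 38.5 and 35.5 CPM in wild type pools. The secreted Wnt antagonists dkk1, sfrp2 and frzb were higher by 1.1 ± 0.22, 1.23 ± 0.25 and 1.66 ± 0.47 (SE). The calls of wnt6, axin2 and znrf3 held with any pool left out, and the count of higher members was 5, 4, 7 and 3 without null pool 1, null pool 2, wild type pool 1 and wild type pool 2.

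Of 55 BMP and TGF-beta genes, 7 were higher, 5 of them delay-like, and 1 lower, with a median of 0.25. The paralogous BMP target genes ventx2.1 and ventx2.2, ventral homeobox factors of the early embryo, were at 9.32 and 7.32 CPM and at 8.85 and 7.82 CPM in null pools. In wild type pools they were at 2.49 and 1.44 CPM and at 2.22 and 2.35 CPM. In stage 25 heterozygotes ventx2.1 was at 61.2 and 55.3 CPM and ventx2.2 at 73.9 and 70.9 CPM, and reads could be shared between them. The receptor bmpr1b was higher by 1.31 ± 0.17 (SE), and the secreted BMP antagonist nog by 0.95 ± 0.28. The activin and BMP antagonist fst was at 54.2 and 51.4 CPM in null and 24.7 and 18.6 CPM in wild type pools (1.28 ± 0.22 SE, adjusted p = 0.00253). The lower member was bmp1, a protease that matures collagens and cleaves the BMP antagonist chordin. It was at 42.0 and 45.5 CPM in null and 94.9 and 96.5 CPM in wild type pools (-1.13 ± 0.17 SE, adjusted p = 0.00089). The calls of both ventx2 genes, bmpr1b and bmp1 held with any pool left out, and the count of higher members was 4, 4, 6 and 3 without null pool 1, null pool 2, wild type pool 1 and wild type pool 2.

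**Figure D3:**
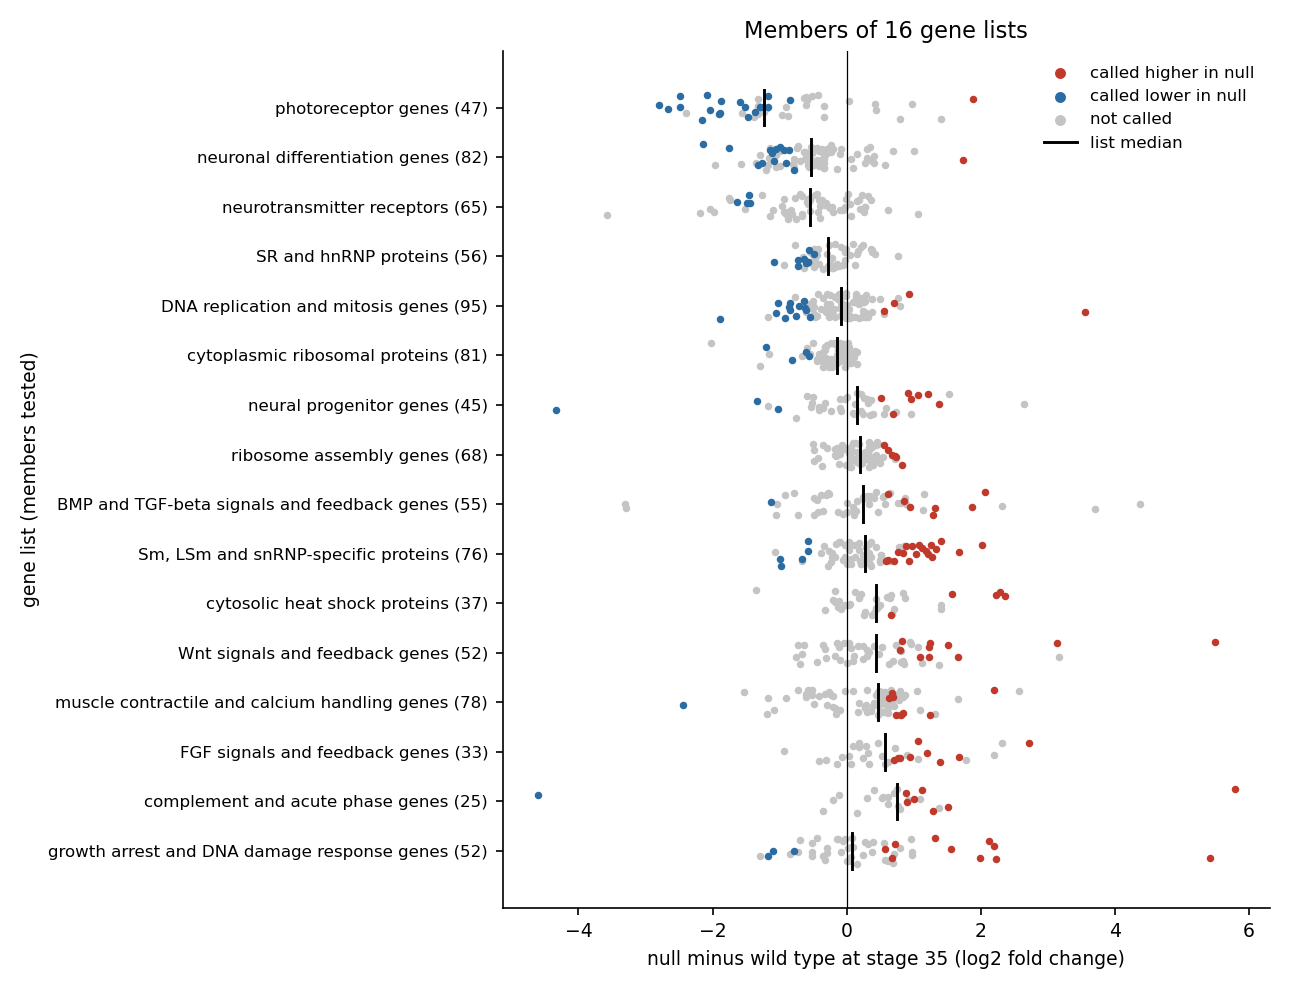
Null minus wild type log2 fold change at stage 35 (horizontal axis) of each tested member of 16 gene lists (rows, number of members in brackets), with called members in colour and a bar at each list's median. Photoreceptor genes have the lowest median, at -1.24, and complement and acute phase genes the highest, at 0.75. FGF, Wnt, ribosome assembly and cytosolic heat shock lists have called members on the higher side alone. SR and hnRNP proteins, neurotransmitter receptors and cytoplasmic ribosomal proteins have them on the lower side alone.

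Complement and acute phase genes, many of which encode defence proteins made by the liver, had the highest median of the 58 lists at 0.75. Of 25 members, 7 were higher and 1 lower. Of the 7, 5 were delay-like: c3, c5, c9, cfi and cfd. The lower one, c1qc, had 1 count over both null pools and 28 over both wild type pools, a ratio of 30.7 in favour of wild type with a 95% counting interval of 5.08 to 1260. The pore-forming component c9 was at 1087 and 824 CPM in null, 528 and 256 CPM in wild type and 3181 and 2709 CPM in stage 25 heterozygous pools (1.29 ± 0.31 SE, adjusted p = 0.0168). The summed list was at 5134 and 4325 CPM in null pools, against 3030 and 1927 CPM in wild type pools. The wild type pools were unequal in liver genes in the same order, and the part of this in the result for complement and acute phase genes was not tested. Of 58 liver genes, 1 was higher and none lower.

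The receptor for the complement fragment C3a, c3ar1, was a separate case. It was at 57.1 and 54.8 CPM in null pools, against 0.808 and 1.21 CPM in wild type pools, 0.995 and 0.649 CPM in heterozygous stage 35 pools and 2.69 and 1.1 CPM in stage 25 heterozygotes (5.79 ± 0.71 SE, adjusted p = 0.00024). Both null pools lay far above every other pool. Its call held with any pool left out, while the other called genes of the list each lost theirs without at least 1 pool. With wild type pool 1 left out 12 genes of the list were called higher, with either null pool left out 3, and with wild type pool 2 left out 1.

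**Figure D4:**
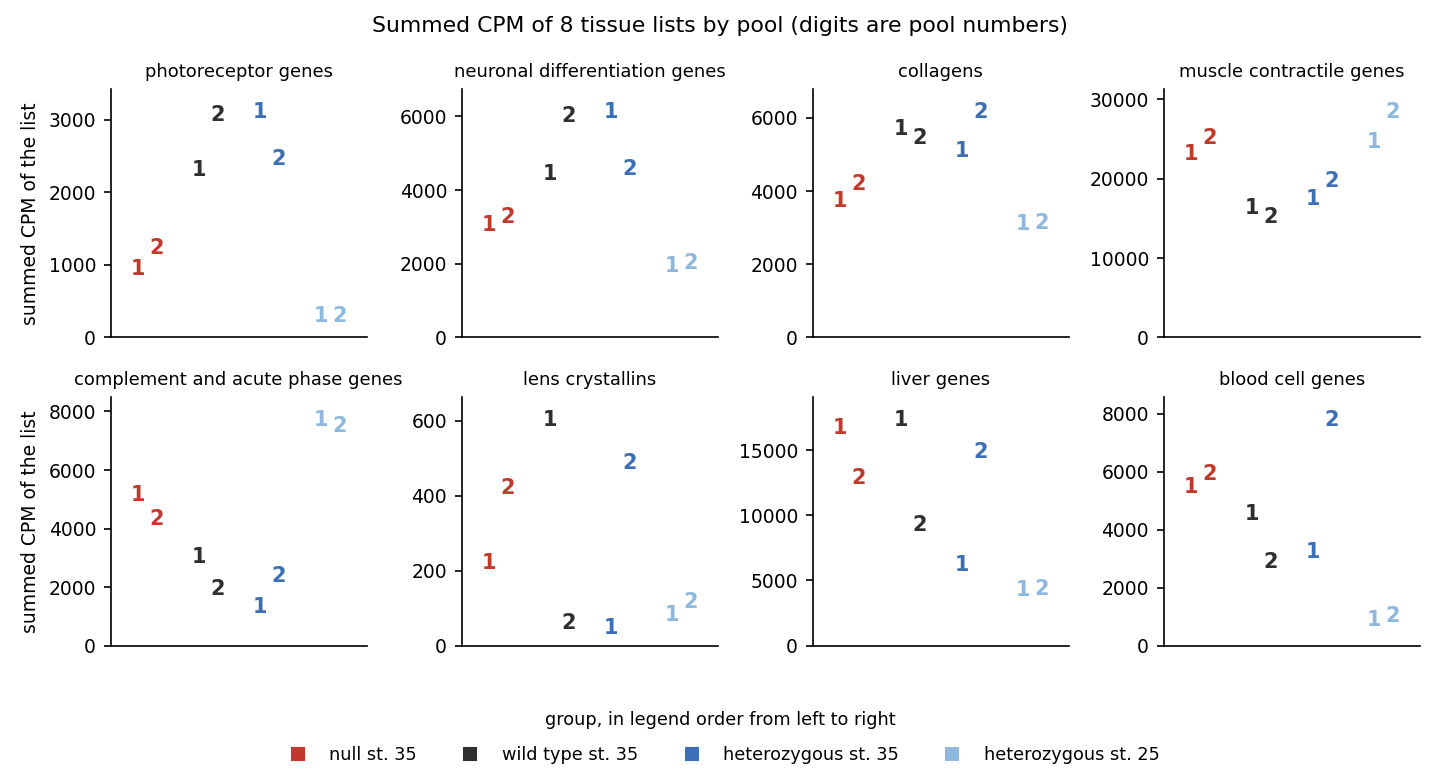
Summed CPM of 8 gene lists (vertical axes, linear, each from 0), with a digit for each pool, in null and wild type at stage 35 and in heterozygous at stages 35 and 25, from left to right. Null pools lie below both wild type pools in photoreceptor, neuronal and collagen genes and above both in muscle and in complement and acute phase genes, whereas wild type pools 1 and 2 are far apart in lens crystallins, at 603 and 59.3 CPM, and in liver genes, at 17327 and 9230 CPM.

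Of the 4 splicing lists, core snRNP proteins and SF3a and SF3b subunits had more members called higher, SR and hnRNP proteins more called lower, and RBM proteins 3 higher and 2 lower of 32. The difference between lists was not tested. Of 10 SF3a and SF3b subunits 3 were higher, none of which held with every pool left out. Of 76 Sm, LSm and snRNP-specific proteins, the core parts of the spliceosome, 19 were higher and 5 lower, with a median of 0.28. Among the 19, 10 were delay-like, 4 were past the stage 25 level and 5 had no stage change called. The 3 higher SF3a and SF3b subunits were all delay-like, and 8 of the 10 subunits fell between the heterozygous stages. The intron-binding helicase aqr was at 214 and 215 CPM in null, 46.7 and 59.4 CPM in wild type and 112 and 104 CPM in stage 25 heterozygous pools (2.02 ± 0.18 SE, adjusted p = 2.03e-05). The U5 snRNP helicase snrnp200, which unwinds the U4 and U6 RNAs, was at 458 and 474 CPM in null, 156 and 134 CPM in wild type and 271 and 239 CPM in stage 25 heterozygous pools (1.68 ± 0.19 SE, adjusted p = 0.000172). Both null levels were thus past those of stage 25, as were those of crnkl1 and snrpd2. Both genes were also higher in null embryos at stage 25, by 0.97 and 0.88 on the log2 scale (adjusted p = 0.0134 and 0.0316).

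The tri-snRNP proteins sart1, prpf3 and prpf8 were higher by 1.4, 1.19 and 1.03 on the log2 scale. A group of 8 members held with any pool left out: aqr, snrnp200, sart1, bud31, crnkl1, snrpd2, prpf3 and prpf8. The number higher was 10, 12, 16 and 9 without null pool 1, null pool 2, wild type pool 1 and wild type pool 2. Among the 5 lower members were the U2-associated protein u2surp, at 129 and 125 CPM in null and 227 and 281 CPM in wild type pools (-1.0 ± 0.19 SE, adjusted p = 0.0048), and the U1 protein snrnp70, at 295 and 318 CPM in null and 405 and 506 CPM in wild type pools (-0.57 ± 0.16 SE, adjusted p = 0.0337). Neither lower call held with every pool left out.

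SR and hnRNP proteins, which bind pre-mRNA and steer the choice of splice sites, gave 9 lower and none higher of 56, with a median of -0.28 and 44 estimates below 0. None of the 9 was delay-like: 6 fell in the same direction as the stage change and 3 had no stage change called. Of the 56 genes, 7 rose and 28 fell between the heterozygous stages, so few could be both lower and delay-like. Levels of hnrnpa1 were 1574 and 1325 CPM in null, 2135 and 2375 CPM in wild type and 4922 and 5136 CPM in stage 25 heterozygous pools (-0.64 ± 0.19 SE, adjusted p = 0.0428). Both null pools were thus further from stage 25 than the wild type pools were. Levels of srsf5a were 32.0 and 30.6 CPM in null and 65.1 and 68.0 CPM in wild type pools (-1.09 ± 0.18 SE, adjusted p = 0.00166). This was the 1 call of the list that held with any pool left out, and with wild type pool 1 left out 6 members were lower, against 1 with any other pool left out.

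Nonsense-mediated decay, which removes transcripts with early stop codons, had 5 genes higher and 1 lower of 23. The central helicase upf1 was at 197 and 193 CPM in null and 93.0 and 93.1 CPM in wild type pools (1.07 ± 0.19 SE, adjusted p = 0.00251), and was higher in null embryos at stage 25 too (1.16, adjusted p = 0.00681). The kinase smg1, which acts on upf1, was at 144 and 142 CPM in null and 91.2 and 70.4 CPM in wild type pools (0.83 ± 0.16 SE, adjusted p = 0.00475). The exon junction protein casc3 fell, at 17.5 and 16.3 CPM in null and 41.2 and 44.2 CPM in wild type pools (-1.34 ± 0.22 SE, adjusted p = 0.00177). The calls of upf1, casc3 and the cap-binding gene ncbp1 held with any pool left out, and that of smg1 was lost without wild type pool 2 (adjusted p = 0.0926).

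Of 52 growth arrest and DNA damage response genes, 10 were higher and 3 lower. A share of 7 of the 10 held with any pool left out, and the same was true of 164 of the 851 genes called higher in all. The list median was 0.08, with 32 estimates above 0 and 20 below. The death receptor eda2r was at 128 and 115 CPM in null and 2.69 and 2.96 CPM in wild type pools (5.42 ± 0.46 SE, adjusted p = 1.34e-05). The cyclin-dependent kinase inhibitor cdkn1a was at 65 and 62.4 CPM in null, 15.8 and 11.3 CPM in wild type and 39.9 and 26.7 CPM in stage 25 heterozygous pools. The translesion polymerase polk was at 112 and 110 CPM in null and 21.2 and 29.9 CPM in wild type pools (2.12 ± 0.28 SE, adjusted p = 0.000386). Of these genes, eda2r alone was also called at stage 25, by 2.21 on the log2 scale (adjusted p = 0.0192). The others that held were aen, ccng1, plk2 and ppm1d.

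The 3 lower members act in repair or its checkpoint, or in mitochondrial electron transfer. The checkpoint kinase chek2 was at 25.4 and 23.8 CPM in null and 36.3 and 48.2 CPM in wild type pools (-0.78 ± 0.20 SE, adjusted p = 0.0258), the helicase mcm8 fell by 1.1 and the reductase fdxr by 1.17 on the log2 scale. Each of these calls was lost with any pool but wild type pool 1 left out.

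Genes of cell death were called in both directions. Of 40 caspase and BCL2 family genes, 6 were higher and 2 lower, with a median of 0.02. The higher ones included the death-promoting BCL2 members bcl2l11, at 34.6 and 31.1 CPM in null and 15.6 and 13.6 CPM in wild type pools (1.17 ± 0.24 SE, adjusted p = 0.00692), and bid, at 17.5 and 22.4 CPM in null and 7.48 and 9.77 CPM in wild type pools (1.21 ± 0.34 SE, adjusted p = 0.036). The protease htra2 fell, at 22.2 and 20.4 CPM in null and 45.5 and 51.8 CPM in wild type pools (-1.19 ± 0.19 SE, adjusted p = 0.00145), and was the 1 member whose call held with any pool left out. None of the 6 higher calls held with every pool left out. Another death-promoting member, bmf, fell by 1.11 on the log2 scale.

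Stress lists were not all called above the background. Endoplasmic reticulum chaperones gave 1 higher and 1 lower of 31 (3.23% each), under it. Amino acid response and integrated stress genes were above it in the lower direction (10.4% against 4.95%) and near it in the higher one (6.25% against 4.8%). Their median was -0.08. Cytosolic heat shock proteins were above it in the higher direction alone (13.5%). In the amino acid response and integrated stress list, 3 of 48 were higher and 5 lower, and none of the 5 lower calls held with every pool left out. The haem-regulated kinase eif2ak1, which slows translation by phosphorylating eIF2, was at 121 and 113 CPM in null and 30.6 and 27.5 CPM in wild type pools (2.01 ± 0.19 SE, adjusted p = 2.17e-05), and held with any pool left out. The other higher genes of the list were atf3 (2.61 ± 0.60 SE, adjusted p = 0.0142) and ddit3 (0.62 ± 0.18 SE, adjusted p = 0.0456). Levels of atf3 were 4.48 and 7.32 CPM in null and 1.08 and 0.833 CPM in wild type pools. Neither of these calls held with every pool left out. The pathway's main transcription factor atf4 was lower, at 787 and 919 CPM in null and 1133 and 1433 CPM in wild type pools (-0.59 ± 0.17 SE, adjusted p = 0.0429). Of 37 cytosolic heat shock proteins, 5 were higher, 4 of them delay-like, and none lower, with a median of 0.43. The chaperone hsp90aa1.1 was at 62.4 and 57.0 CPM in null and 13.5 and 12.1 CPM in wild type pools (2.22 ± 0.26 SE, adjusted p = 0.000192). The inducible chaperone hspa1b, which has a close copy in hsp70, was at 3.42 and 6.3 CPM in null, 0.674 and 1.21 CPM in wild type and 19.5 and 26 CPM in stage 25 heterozygous pools. Only hsp90aa1.1 of the 5 held with any pool left out, and the count was 2, 1, 3 and 2 without null pool 1, null pool 2, wild type pool 1 and wild type pool 2.

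Of 95 DNA replication and mitosis genes, 13 were lower and 4 higher, with a median of -0.08. None of the lower ones was delay-like: 57 of the 95 fell between the heterozygous stages, and 7 of the 13 lower genes lay further along in that direction. The primase subunit prim1, which starts new DNA strands, was at 15.8 and 14.8 CPM in null, 50.9 and 62.7 CPM in wild type and 58.7 and 50.1 CPM in stage 25 heterozygous pools (-1.89 ± 0.18 SE, adjusted p = 2.23e-05). The replication kinase cdc7, outside the list, was at 27.5 and 21.4 CPM in null and 78.7 and 91.7 CPM in wild type pools (-1.80 ± 0.17 SE, adjusted p = 2.17e-05). Both genes were lower in null embryos at stage 25 too, by -1.06 and -1.22 on the log2 scale (adjusted p = 0.00827 and 0.0032). The mitotic transcription factor foxm1 fell by 0.92 on the log2 scale. The calls of prim1, cdc7 and foxm1 held with any pool left out, and the count of lower list members was 4, 2, 8 and 4 without null pool 1, null pool 2, wild type pool 1 and wild type pool 2. The higher members included the phosphatase cdc25a, which drives cell cycle entry, at 63.0 and 59.3 CPM in null and 31.3 and 32.7 CPM in wild type pools (0.93 ± 0.17 SE, adjusted p = 0.00424). The helicase subunit mcm3 was at 2.18 and 2.97 CPM in null, 0.337 and 0.0758 CPM in wild type and 1.12 and 0.49 CPM in stage 25 heterozygous pools, and its call was lost without null pool 2 or wild type pool 2.

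**Figure D5:**
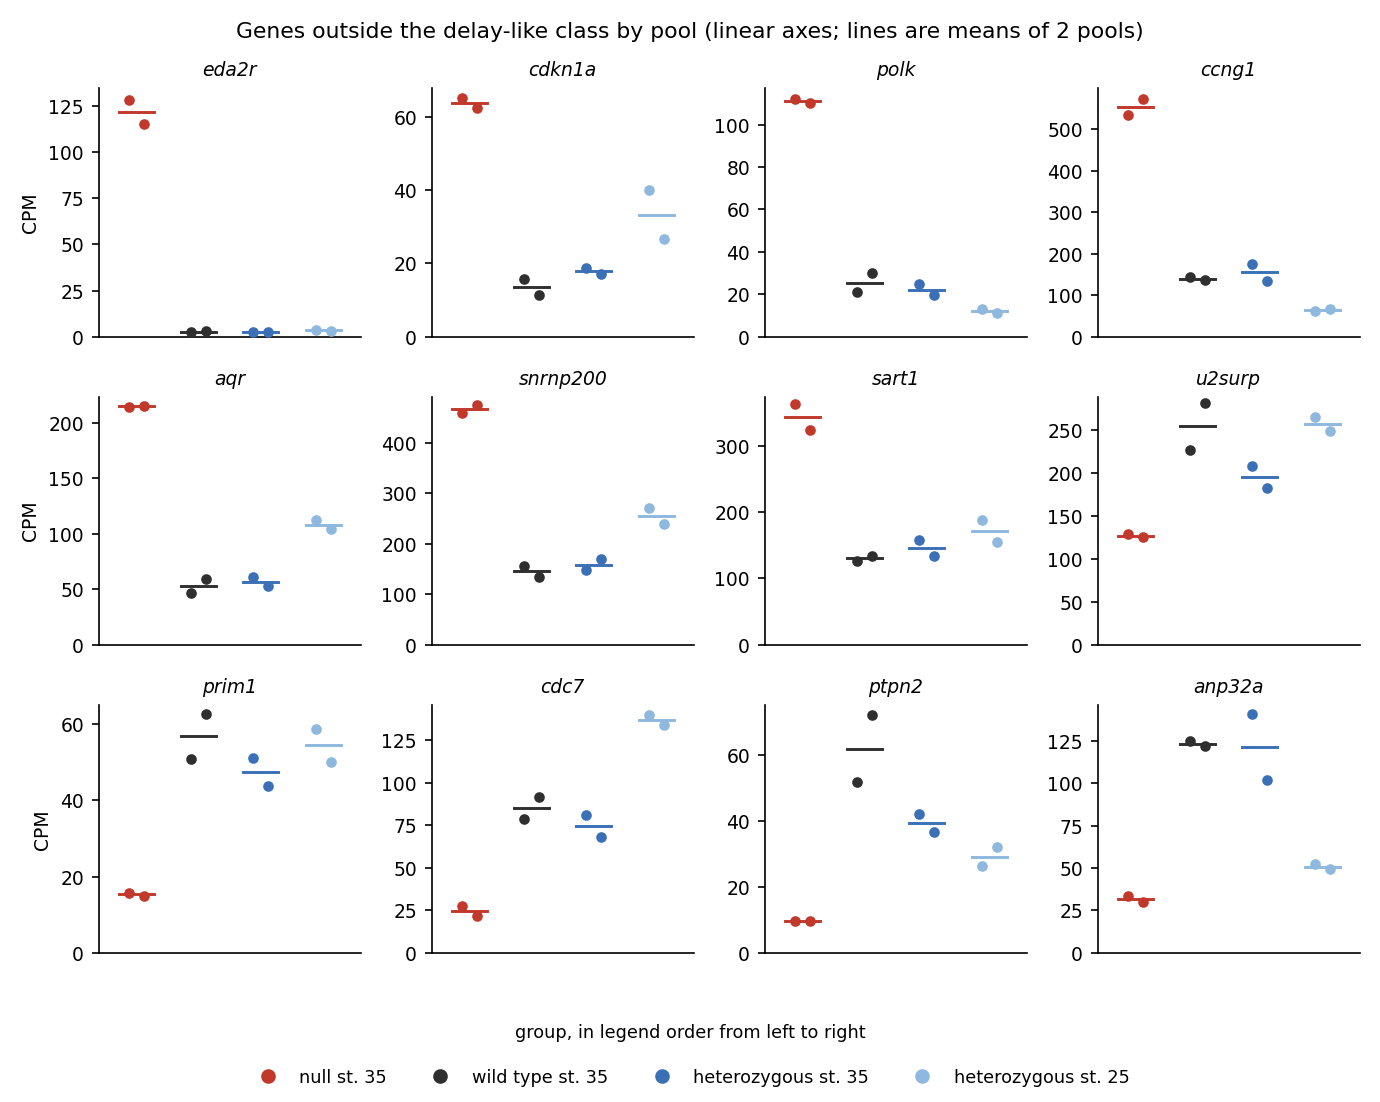
CPM of 12 genes outside the delay-like class (vertical axes, linear, each from 0) in null, wild type and heterozygous embryos at stage 35 and heterozygous embryos at stage 25, from left to right, with a point for each pool and lines at means of 2 pools. The null points lie above all other points in the panels of eda2r, cdkn1a, polk, ccng1, aqr, snrnp200 and sart1, and below all others in those of u2surp, prim1, cdc7, ptpn2 and anp32a; for anp32a the null pools, at 33.4 and 29.9 CPM, are below the stage 25 heterozygotes.

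In protein synthesis, 4 of 81 cytoplasmic ribosomal proteins (4.94%) were lower and none higher, against 4.95% lower among all genes tested. All 4 were delay-like, in a list where 76 of the 81 genes rose between the heterozygous stages. The list median was -0.15, with 15 estimates above 0 and 66 below. Summed, the list stood at 118864 and 120370 CPM in null pools and 128069 and 144741 CPM in wild type pools. Of the 4 lower genes, rpl22l1, a paralogue of a large subunit protein, was at 129 and 117 CPM in null and 318 and 251 CPM in wild type pools (-1.21 ± 0.21 SE, adjusted p = 0.00296). It alone of the 4 held with any pool left out. Of 68 ribosome assembly genes, 6 were higher and none lower, with a median of 0.20. All 6 were delay-like, in a list where 62 of the 68 genes fell between the heterozygous stages. None of the 6 held with every pool left out, and the count was 1, 1, 2 and 3 without null pool 1, null pool 2, wild type pool 1 and wild type pool 2. Of 62 translation factors, 3 were higher (4.84%) and 4 lower (6.45%), with a median of -0.01. The higher ones were eif2ak1, eif3l and eif4g1. Among the lower ones, the initiation factor eif1, which monitors start codons, was at 107 and 112 CPM in null, 241 and 261 CPM in wild type and 193 and 142 CPM in stage 25 heterozygous pools (-1.19 ± 0.17 SE, adjusted p = 0.000657). The call of eif1 held with any pool left out.

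Other lists are given by their counts. None of 32 endothelial genes, 75 oxidative phosphorylation subunits or 22 pituitary, hypothalamus and thyroid genes was called by edgeR in either direction. At an unadjusted p under 0.05 there were 2, 5 and 3 of them in that order, and the DESeq2 Wald test called 0 in each list. Motile cilium genes gave 1 higher and 1 lower of 107, pronephric kidney genes 2 higher and 1 lower of 52 and heart genes 2 higher and 1 lower of 34. The higher heart genes were the delay-like factors gata4, at 26 and 18.2 CPM in null and 12.1 and 8.64 CPM in wild type pools, and gata5, and neither call held with every pool left out. Of 36 inner ear genes, tectb and ush1g were lower, by 2.26 and 1.18 on the log2 scale, and neither call held with every pool left out. The kidney call lrp2, the endocytic receptor megalin, was at 61.3 and 65.3 CPM in null and 28.2 and 27.0 CPM in wild type pools (1.2 ± 0.15 SE, adjusted p = 0.000269). In the skin, 2 of 25 keratins were lower, of which krt62 was at 1.36 and 1.38 CPM in null pools and fell by 3.12 on the log2 scale (adjusted p = 0.00188). Of 8 enzymes of tyrosine and phenylalanine breakdown, the liver enzymes hgd and hpd were lower and delay-like, with hgd at 3.95 and 5.58 CPM in null and 18.9 and 34.7 CPM in wild type pools (-2.49 ± 0.41 SE, adjusted p = 0.00188).

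Some rises were unequal between the null pools. The secreted glycoprotein olfm4 was at 57.7 CPM in null pool 1 and 349 CPM in null pool 2, against 7.21 and 3.18 CPM in wild type pools. The cytokine csf1, which sustains macrophages, was at 23.0 and 99.4 CPM in null pools and 6.53 and 7.35 CPM in wild type pools. The collagenase mmp1 was at 15.6 and 91.1 CPM in null and 1.75 and 1.67 CPM in wild type pools, and tnfaip2 at 11.8 and 217 CPM in null and 4.24 and 2.05 CPM in wild type pools. In all 4 genes null pool 2 was the highest pool and null pool 1 still lay above both wild type pools. The calls of olfm4 and csf1 held with any pool left out, while those of mmp1 and tnfaip2 were lost without null pool 2 and without wild type pool 2 (highest adjusted p = 0.0734 and 0.0895).

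Other falls were found in single genes outside the groups above. The tyrosine phosphatase ptpn2, a brake on cytokine signalling, was at 9.73 and 9.56 CPM in null and 51.8 and 72.3 CPM in wild type pools (-2.68 ± 0.23 SE, adjusted p = 1.34e-05), and was lower at stage 25 as well (-2.04, adjusted p = 0.00148). The mitochondrial superoxide dismutase sod2 was at 2.65 and 2.39 CPM in null and 16.2 and 15.6 CPM in wild type pools, and at 2.13 and 1.84 CPM in stage 25 heterozygotes. Below the stage 25 level lay dctn3, a dynactin subunit, at 23.8 and 23.0 CPM in null, 80.7 and 126 CPM in wild type and 45.6 and 65.7 CPM in stage 25 heterozygous pools (-2.14 ± 0.25 SE, adjusted p = 0.000184). The mitochondrial membrane protein gene mpv17 fell by 2.13 on the log2 scale and was below that level as well. These 4 calls held with any pool left out. The rule for naming the 10 largest falls took only genes with a mean log2 CPM of at least 1. Of those 10, the calls of cel and astl3b.2 were each lost in 2 of the 4 fits. The lipase gene cel was at 1.24 and 0.869 CPM in null and 4.18 and 10.1 CPM in wild type pools. The astacin-like protease astl3b.2 was at 8.26 and 2.9 CPM in null and 41.6 and 16 CPM in wild type pools. The family of astl3b.2 did not fall as a whole. Of 13 astacin-like proteases, astl3b.2 was the 1 lower, while astl2d.2 and astl3a.1 were higher, with a median of 0.43. Neither higher call held with every pool left out.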

How the data were processed

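Polyadenylated RNA of whole-embryo pools was sequenced, and the authors deposited 1 table of read counts per gene for each library, per the file headers. The submitters' processing notes name bcl2fastq 2.20 and STAR without a role. The genome build, the counting program and its use of strand are not given in the sources used here, so genes with close copies or overlapping partners are uncertain, and no coordinates or sequences are given. Of the gene names, 26530 matched a RefSeq symbol of the assembly UCB_Xtro_10.0.

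Genes were kept by filterByExpr of edgeR 4.0.16 (minimum count 10, minimum total 15). Scaling factors were computed by TMM over all 17 libraries, and CPM uses library sizes multiplied by them. The fit (glmQLFit, R 4.3.3) took the 16 libraries of the 8 groups with 2 pools, leaving 8 residual degrees of freedom; the stage 15 null group, with 1 pool, was left out. Calls are adjusted p under 0.05. Where a pool was left out, the lone pool of its group was assumed to vary like the other groups. Counting intervals are exact at 95% and cover counting error only. Splicing was not analysed here. Some items are not reported here.

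Alternatives were DESeq2 1.42.0 (size factors and Wald test), no filter, fewer stages, a replicate block and pools left out. Genes were named by rule: sf3b4, the 10 largest rises and the 10 largest falls, up to 4 called members per list and direction, and 5 per class. The rises, falls and class genes had to be called, with non-overlapping pools and a mean log2 CPM of at least 1. Their symbols also could not be a LOC or XB number. Others of the 58 lists were named after their values were seen. The members and lists were chosen with earlier results of these data known.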

Additional observations from a re-analysis of the deposited data

Results flagged for a closer look

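For 7 of the named genes the null effect at stage 35 differed from the null effect at stage 25, by the interaction test of edgeR at an adjusted p under 0.05 over all genes tested. Over all genes tested 25 genes met this (0.141%). The values that follow are the stage 35 effect minus the stage 25 effect on the log2 scale, and a positive value means that null minus wild type was more positive at stage 35. It was 7.84 for the avidin gene avd, which was at 34.1 and 75.9 CPM in null and 0.202 and 0.227 CPM in wild type pools at stage 35. It was 4.08 for the carboxypeptidase cpa6, at 30.0 and 30.8 CPM in null and 2.22 and 3.11 CPM in wild type pools at stage 35. It was 2.11 for the adhesion gene dscaml1 and 1.58 for the kinase eif2ak1. It was 2.16 for ventx2.1 and 1.92 for ventx2.2, whose null minus wild type differences at stage 25 were -0.09 and -0.06. It was -1.77 for anp32a, at 33.4 and 29.9 CPM in null and 125 and 122 CPM in wild type pools at stage 35.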

How the results depend on the processing

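With 2 pools per group, these counts depend on single pools. With 1 pool left out at a time, the count of genes called higher ran from 200 to 592 and that called lower from 155 to 641; delay-like genes ran from 81 to 281 higher and 52 to 318 lower, genes outside that class from 119 to 508 higher and 85 to 486 lower, and genes whose effect differed between stages from 4 to 42. The numbers in the titles did not pair null with wild type pools (correlation of pool 1 minus pool 2 over genes 0.0256, 2 pairs). For heterozygous and wild type pools at stage 35 that correlation was -0.366, so their differences tended to run in opposite order. A replicate block gave 531 higher and 469 lower, 212 and 207 delay-like, 319 and 262 outside that class and 9 that differed between stages. Fitting only stages 25 and 35 gave 1327 lower, 670 of them delay-like, and 68 between stages, and stage 35 alone 1442 lower. Asking for a 2-fold heterozygous change left 200 delay-like genes higher. Without the filter 239 genes differed between stages, and with the DESeq2 Wald test 158. TMM over the 16 libraries fitted, chosen after seeing the data, gave 981 higher and 757 lower. The named genes kept their direction under these settings, but the balance of counts did not: lower calls outnumber higher ones with all pools, and higher calls outnumber lower ones with the block, with TMM over 16 libraries and without null pool 1, null pool 2 or wild type pool 2. Genes under about 1 CPM rest on few counts, and their fold changes are wide.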

Other observations

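Outside the lists, a few genes of immune signalling were called higher, named here after their values were seen. The macrophage enzyme gene acod1 was at 9.26 and 19.4 CPM in null and 0.472 and 0.152 CPM in wild type pools (5.46 ± 0.79 SE on the log2 scale, adjusted p = 0.000768). The decoy receptor il1r2 was at 8.61 and 12.5 CPM in null and 1.01 and 0.909 CPM in wild type pools (3.45 ± 0.47 SE, adjusted p = 0.000514). The cytokine lif was at 12.5 and 20.4 CPM in null and 0.808 and 0.682 CPM in wild type pools (4.44 ± 0.62 SE, adjusted p = 0.000616). The interferon pathway factor irf9 was at 30.7 and 28.7 CPM in null and 8.83 and 6.21 CPM in wild type pools (1.98 ± 0.29 SE, adjusted p = 0.000768). All 4 lay outside the delay-like class, and their calls held with any 1 of the 4 pools left out. Of 47 blood cell genes, 3 were higher and 1 lower. The lower one was c1qc, also in the complement list, with 1 count over both null pools and 28 over both wild type pools. Its call was lost with any pool left out. The higher ones were the phagocyte oxidase subunits cyba and cybb and the transcription factor spib. Levels of cybb were 29.1 and 25.1 CPM in null and 9.50 and 6.90 CPM in wild type pools. None of these 3 calls held with every pool left out, and the count was 1, 2, 2 and 0 without null pool 1, null pool 2, wild type pool 1 and wild type pool 2. The part of immune cell number in these values was not tested.

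The early pluripotency factor sall4 was at 128 and 123 CPM in null, 33.1 and 19.4 CPM in wild type and 241 and 208 CPM in stage 25 heterozygous pools (2.26 ± 0.27 SE, adjusted p = 0.000184), which made it delay-like. The glycosyltransferase ogt, which modifies nuclear and cytoplasmic proteins, was at 220 and 207 CPM in null, 638 and 781 CPM in wild type and 646 and 639 CPM in stage 25 heterozygous pools (-1.73 ± 0.19 SE, adjusted p = 9.61e-05). Both calls held with any pool left out.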
